A study of Mus musculus with 12 samples.

Results

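A myocardial infarct heals in stages, and the arrays described here catch 2 of them in the mouse left ventricle, 1 week and 1 month after coronary ligation. Of the 12 arrays in the series, 4 belong to this comparison, and they were chosen by their labels. They are MI at 1 month, its sham at 1 month, MI at 1 week and its sham at 1 week, each 1 array of left ventricular total RNA from Balb/c mice that were 6 to 8 weeks old at surgery. In the MI groups the proximal left coronary artery was tied. The series text adds that the tie was loosened after 30 min, whereas the labels name only the ligation. In the sham groups the pericardium was opened and the artery was left alone. The labels name no genetic change and no drug in these 4 groups. Which piece of the ventricle was taken (scar, border or remote muscle) and whether an array holds 1 animal or a pool are not stated in the labels or the series text. The other 8 arrays come from transverse aortic constriction (TAC), Ang II infusion and their controls. The 6 control arrays of the whole series, including the 2 shams used here, served as a range of uninjured signals.

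As background, dead muscle draws in neutrophils and then monocytes that become macrophages and clear debris. Fibroblasts next turn into myofibroblasts, divide, and lay down collagen that is later cross-linked into a scar. Surviving cardiomyocytes re-express genes of the fetal heart, such as natriuretic peptides and the slow myosin heavy chain, and lower the genes for burning fatty acids.

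Each gene has a log2 ratio of MI over sham at 1 month and one at 1 week, and the healing difference is the first minus the second. A negative healing difference therefore means a smaller MI excess at 1 month. Since each group is 1 array, no spread within a group exists and no test was made. To be counted at a given time, a gene needed a 2-fold difference from sham (a log2 ratio of 1 or more in size), a brighter value over 25.9 (the median signal of the series) and an MI signal beyond the lowest or highest of the 6 controls. To be counted in the healing difference it needed a difference of 1 or more in size, a brightest value over the same limit and at least 1 MI signal beyond the controls. In bulk tissue, fewer cells of a type and less RNA per cell cannot be told apart.

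The 4 arrays were alike in technical measures. Their 2% trimmed mean signals ran from 110.1 to 124.03 and their actin 3' to 5' ratios, a sign of RNA integrity, from 1.28 to 1.33. Ventricular muscle markers were present on every array. Myl2, the ventricular light chain, had signals of 12592 in MI and 13318 in sham at 1 month, and 12029.9 in MI and 13464 in sham at 1 week. Myh6, the adult heavy chain, gave 13777 in MI and 14971 in sham at 1 month, and 12398 in MI and 14690.3 in sham at 1 week. These lie near the top of the scale, where the highest deposited signal was 14795, and whether the scale is still linear there was not tested.

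Fewer genes stood apart from sham at 1 month than at 1 week, and most of those that did were already high at 1 week. At 1 month 408 of 11624 genes (3.51%) were counted, 336 higher (2.89%) and 72 lower (0.619%) with MI. At 1 week 850 genes (7.31%) were counted, 699 higher (6.01%) and 151 lower (1.3%). Both times shared 234 genes (2.01%), 218 higher and 16 lower in MI, called persistent below. Another 178 genes (1.53%) counted at 1 week lay back inside the control range at 1 month with a healing difference of at least 1 in size, and they are called returned below. A further 57 genes (0.49%) were counted at 1 month while MI at 1 week lay inside the control range, and these are called late.

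Because a gene picked for its size at one time tends to be smaller at the other, both directions of selection were read. The 699 genes higher at 1 week had a median log2 ratio of 0.76 at 1 month and 1.43 at 1 week. The 336 genes higher at 1 month had a median of 1.34 at 1 month and 1.37 at 1 week. Genes high at 1 month were thus as high at 1 week, while genes high at 1 week were on median lower at 1 month. In the 336 genes the median change of sham, 1 month against 1 week, was -0.40, so low shams at 1 month entered their selection. The genes below sham differed. The 72 genes lower at 1 month had a median of -1.40 at 1 month and -0.36 at 1 week, and the 151 lower at 1 week had -0.41 at 1 month and -1.24 at 1 week. Over all genes the 2 ratios correlated with r = 0.49, and over the 6995 genes with a mean signal of at least 100 with r = 0.71, across genes that are not independent replicates.

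**Figure D1:**
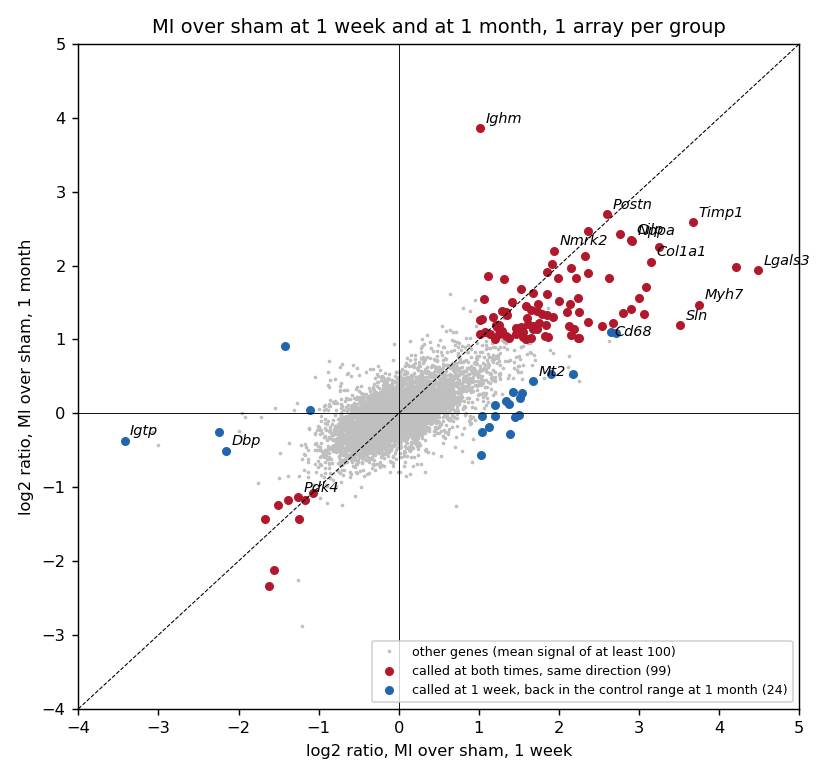
Log2 ratio of MI over sham at 1 month (vertical axis) against that at 1 week (horizontal axis) for genes with a mean signal of at least 100, 1 array per group; the dashed line marks equal ratios. Red points are the 99 persistent genes and blue points the 24 returned genes; most red points on the right lie below the line (Lgals3, Myh7, Sln), Postn lies close to it and Ighm far above it.

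The healing difference itself was counted in 553 genes (4.76%), 207 higher (1.78%) and 346 lower (2.98%). The same kind of 4-array difference between uninjured hearts was used as a yardstick: the drift from 1 week to 1 month in the TAC series shams minus that in the MI series shams, which shares the 2 MI shams with the healing difference. Without the condition on the control range, 865 genes (7.44%) passed a 2-fold healing difference and 852 (7.33%) passed the difference among shams. Over all genes, then, 2-fold healing differences were about as frequent as 2-fold differences among shams. Most of both came from dim genes. In the 500 to 2000 signal range 17 of 1641 genes passed in the healing difference and 1 among the shams, whereas under a signal of 50 the counts were 601 and 663 of 2473. Among the 6995 genes with a mean signal of at least 100, a limit chosen after seeing the data, 18 genes were counted higher and 58 lower in the healing difference (1.09%). Without the range condition, 104 of these (1.49%) passed in the healing difference and 55 (0.786%) in the difference among shams. In that brighter set the sham drift of the MI series passed 2-fold in 10 genes (0.143%) and that of the TAC series in 19 (0.272%). The list counts and medians that follow were nevertheless taken over all measured members, dim ones included, unless a signal limit is named. The shares given beside them are likewise those of all genes, not of the brighter set.

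**Figure D2:**
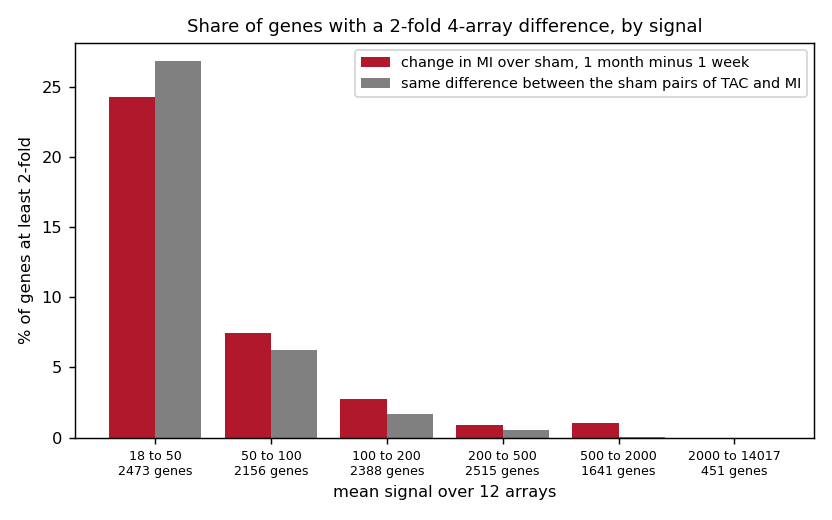
Share of genes (%) with a 2-fold difference, by mean signal over the 12 arrays; red bars are the healing difference (MI over sham, 1 month minus 1 week) and grey bars the same 4-array difference between the TAC and MI sham pairs. Red and grey are alike under a signal of 100, and in the 500 to 2000 range red reaches 1.04% and grey 0.0609%.

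Macrophage genes stayed above sham at both times but with a smaller excess at 1 month. Of 41 measured macrophage and monocyte markers, 18 were counted higher at 1 month (2.89% of all genes) and 29 at 1 week (6.01% of all genes), and 16 were persistent (2.01% of all genes). Their median log2 ratio was 0.96 at 1 month and 1.59 at 1 week. Over all genes both medians were 0.0090. In the healing difference 12 of the 41 were counted lower (2.98% of all genes) and 0 higher. The list's median drift in the MI shams was -0.101.

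Lgals3, galectin-3 of activated macrophages, had a signal of 404 in MI and 105 in sham at 1 month, and 1952 in MI and 87.3 in sham at 1 week. The MI arrays were above every control at both times, yet the log2 ratio was 1.94 at 1 month and 4.48 at 1 week. Cd68, a lysosomal glycoprotein that marks macrophages, gave 226 in MI and 115 in sham at 1 month, and 718 in MI and 116 in sham at 1 week. Here the shams stood still and the MI signal alone was lower at 1 month, just above the control maximum of 178. The proteases Ctss and Ctsk, which digest matrix and antigens in lysosomes, showed the same order. Ctss had signals of 764 in MI and 259 in sham at 1 month, and 2186 in MI and 273 in sham at 1 week. Ctsk gave 246 in MI and 95.7 in sham at 1 month, and 523 in MI and 75.3 in sham at 1 week. Adgre1, the F4/80 antigen, had log2 ratios of 0.86 at 1 month and 1.89 at 1 week, and Csf1r, the receptor that keeps macrophages alive, 0.49 at 1 month and 0.93 at 1 week. Tyrobp and Fcer1g, adaptors of activating receptors, had healing differences of -1.35 and -1.35.

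Other macrophage genes also stayed more than 2-fold above sham. Ccr2, the chemokine receptor of recruited monocytes, gave 107 in MI and 22.1 in sham at 1 month, and 128 in MI and 23.7 in sham at 1 week, so both MI arrays exceeded the highest control of 38.8 by a similar margin. Its dimmer probe sets disagreed: a log2 ratio of 0.039 at 1 month and 2.08 at 1 week in the dimmest, and 2.03 and 1.54 in the other. With all its probe sets averaged the healing difference was -0.67, against -0.16. Ms4a7 had log2 ratios of 2.02 at 1 month and 2.98 at 1 week, and Lyz2, lysozyme, 1.14 at 1 month and 1.68 at 1 week. Trem2, a lipid-sensing receptor of macrophages, had signals of 66.6 in MI and 5.71 in sham at 1 month, and 199 in MI and 24.3 in sham at 1 week. Its ratio was 3.54 at 1 month and 3.03 at 1 week, but the MI signal was lower at 1 month and the sham signal was lower too, near the floor of 4.54 under which signals were raised, and a higher floor gave a healing difference of -0.996, against 0.51. Resident macrophage markers were less raised than the list above. Their median was 0.41 at 1 month and 0.81 at 1 week, with 1 of 13 counted higher at 1 month (2.89% of all genes) and 5 at 1 week (6.01%). Mrc1, the mannose receptor, gave 443 in MI and 294 in sham at 1 month, and 716 in MI and 346 in sham at 1 week.

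Choice of sham mattered for these genes. Of the 12 macrophage markers counted lower, 11 stayed below 0 with the TAC shams of the same times in place of the MI shams, but only 5 kept the 2-fold size. Adgre1 then had -0.67, Ctss -0.996, Tyrobp -0.82 and Fcer1g -0.96. Gpnmb, a glycoprotein of lipid-laden macrophages, gave 292 in MI and 60.7 in sham at 1 month, and 745 in MI and 16.3 in sham at 1 week. With the TAC shams its healing difference turned positive (0.63, against -3.25). For Ctsk it was -0.26 with the TAC shams, against -1.43, and for Cd68 -0.96, against -1.65, so both lost the 2-fold size. For Lgals3 it was -1.52.

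Neutrophil genes were few and unsteady among controls. Of 6 measured markers 1 was counted higher at 1 month and 4 at 1 week, against 2.89% and 6.01% of all genes. In the healing difference 2 were counted lower (2.98% of all genes) and 1 higher (1.78%). S100a8 and S100a9 are the calprotectin subunits that fill neutrophils. S100a9 had signals of 70.1 in MI and 23.3 in sham at 1 month, and 462 in MI and 74.2 in sham at 1 week. S100a8 gave 70.5 in MI and 22.2 in sham at 1 month, and 288 in MI and 46.9 in sham at 1 week. At 1 month both lay inside the control ranges, which reached 132 and 170.5. Lcn2, an iron-trapping protein of neutrophils and of stressed tissue, gave 39.7 in MI and 24.6 in sham at 1 month, and 209.5 in MI and 20.8 in sham at 1 week, but the sham of TAC at 1 day reached 500.4. Ngp, a granule protein, went the other way, with 31.1 in MI and 10.1 in sham at 1 month, and 34.6 in MI and 29.3 in sham at 1 week. Csf3r, the receptor for granulocyte colony-stimulating factor, had log2 ratios of 1.96 at 1 month and 1.93 at 1 week. Both are dim, and their sham signals were lower at 1 month.

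Several chemokines and acute phase genes had lower MI signals at 1 month that were still above sham. Of 22 measured cytokine and chemokine genes, 5 were counted higher at 1 month and 10 at 1 week, and of 18 complement and acute phase genes 7 at 1 month and 9 at 1 week, against 2.89% and 6.01% of all genes. Saa3, a serum amyloid made by macrophages and fibroblasts, had signals of 79.1 in MI and 12.8 in sham at 1 month, and 1128 in MI and 37.8 in sham at 1 week. Hp, haptoglobin, gave 127 in MI and 6.13 in sham at 1 month, and 384 in MI and 17.9 in sham at 1 week. Its log2 ratio of 4.37 at 1 month and 4.43 at 1 week was level with both MI and sham lower at 1 month. Both sham signals are dim, and a higher floor (40th percentile) gave a healing difference of -1.46, against -0.053. Serpina3n, an acute phase protease inhibitor, gave 405 in MI and 75.7 in sham at 1 month, and 806 in MI and 119 in sham at 1 week. Among the chemokines that attract monocytes, Ccl7 had signals of 40.3 in MI and 29.5 in sham at 1 month, and 129.7 in MI and 35.4 in sham at 1 week and was back within the controls. Ccl2 gave 49.1 in MI and 8.93 in sham at 1 month, and 244 in MI and 45.99 in sham at 1 week, and its MI signal at 1 month was inside the control range. Its ratios of 2.46 at 1 month and 2.41 at 1 week were nearly equal, but sham was dim at 1 month, and the healing difference of 0.048 was -0.81 with the higher floor and -1.997 with the TAC shams. Ccl8 had log2 ratios of 1.56 at 1 month and 2.24 at 1 week and Ccl9 1.18 at 1 month and 2.13 at 1 week. Cxcl13, which draws B cells, gave 189 in MI and 47.3 in sham at 1 month, and 195 in MI and 34.2 in sham at 1 week and so had nearly the same MI signal at both times.

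Immunoglobulin genes moved the other way. Ighm, the heavy chain of IgM, had a signal of 1062 in MI and 73.1 in sham at 1 month, and 174 in MI and 85.8 in sham at 1 week. On the other 11 arrays of the series it did not exceed 174. Jchain, which joins IgM and IgA into polymers, had signals of 438 in MI and 20.04 in sham at 1 month, and 61.00 in MI and 32.2 in sham at 1 week. Igha, the IgA heavy chain, gave 142 in MI and 40.4 in sham at 1 month, and 46.6 in MI and 69.1 in sham at 1 week. The light chain segment Igkv8-30 gave 433 in MI and 33.2 in sham at 1 month, and 106 in MI and 42.2 in sham at 1 week. In all 4 genes MI at 1 month was the highest of the 12 arrays. Healing differences were 2.84 for Ighm, 3.53 for Jchain, 2.38 for Igha and 2.37 for Igkv8-30. Of 25 listed T, B and natural killer cell markers only 5 were bright enough to be measured, namely Ighm and Jchain themselves, Ccl5, Gzma and Zap70. The cells behind the immunoglobulin transcripts therefore cannot be read from marker genes here. These transcripts rest on the 1 MI array at 1 month.

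Interferon-induced and antigen presentation genes had a positive healing difference on median, but controls varied as much. Many of these genes are induced by interferon-gamma from lymphocytes. Among them, p47 and guanylate-binding GTPases attack microbes inside cells, and class II genes show peptides to helper T cells. The interferon-induced list also holds genes that type I interferon induces, such as Ifitm3 and Oas1a, so its counts and median are not specific to interferon-gamma. Of 22 measured interferon-induced genes 19 had a healing difference above 0, with a list median of 0.62, against 0.0034 over all genes. The 17 measured antigen presentation genes had a median of 0.91, with 14 above 0. Only 1 of the 22 and 0 of the 17 were counted higher in the healing difference (1.78% of all genes). The size limit of 1 was reached by 8 of the 22 and 7 of the 17, and in the 7 of each list that reached it without being counted both MI arrays lay inside the control range.

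Igtp, a p47 GTPase, had signals of 564 in MI and 729 in sham at 1 month, and 152 in MI and 1629.8 in sham at 1 week. Sham at 1 week was thus the highest and MI at 1 week the lowest of the 4. Elsewhere Igtp gave 169 in the sham of TAC at 1 day and 228 in the Ang II control, against 1146 in the sham of TAC at 1 week. The low MI signal at 1 week was therefore close to 2 of the 6 uninjured arrays. Irgm2, another member of the family, gave 195 in MI and 263 in sham at 1 month, and 72.98 in MI and 585 in sham at 1 week. Gbp7, a guanylate-binding protein, gave 387 in MI and 402 in sham at 1 month, and 165 in MI and 626 in sham at 1 week, and its relative Gbp2 297 in MI and 281 in sham at 1 month, and 149 in MI and 433 in sham at 1 week. In all 4 GTPase genes MI at 1 week was lower than its sham. The invariant chain Cd74 had signals of 1249 in MI and 806 in sham at 1 month, and 671 in MI and 1118 in sham at 1 week. H2-Ea, a class II chain outside the antigen presentation list, gave 1160.1 in MI and 709 in sham at 1 month, and 528 in MI and 966 in sham at 1 week. Unlike the listed antigen presentation genes, H2-Ea was counted higher in the healing difference. Its MI signal at 1 month lay above the highest control of 1069.9. Over the 22 interferon-induced genes, the median log2 level relative to the mean of the 12 arrays was 0.22 for MI and 0.24 for sham at 1 month, and -0.12 for MI and 0.43 for sham at 1 week. It ran from -0.60 in the sham of TAC at 1 day to 0.43 in the sham of MI at 1 week among controls. Whether this spread between control arrays carries the positive healing difference was not tested. With the TAC shams of the same times in place of the MI shams, it was 2.77 for Igtp (against 3.05) and 2.66 for Irgm2 (against 2.57). For Gbp7 it was 1.77 (against 1.87), for Cd74 1.42 (against 1.37) and for H2-Ea 1.72 (against 1.58). Ifit1, another interferon-induced gene, had 0.36, against 1.03. Ifitm3 and Oas1a, antiviral genes that type I interferon induces, had small ratios at both times, 0.32 at 1 month and 0.15 at 1 week for Ifitm3, and 0.29 at 1 month and 0.25 at 1 week for Oas1a.

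The promoters of 4 of these GTPase genes are shown because they carry the core of the element named after their inducer. The sequences are from RefSeq (GRCm38.p6), 250 bases before to 50 after the gene's start on the gene's own strand, all 4 on the plus strand. Capitals mark the core of the interferon-stimulated response element, searched as GAAANNGAA on both strands, with N for any base.
Igtp, chr11:58199306-58199605: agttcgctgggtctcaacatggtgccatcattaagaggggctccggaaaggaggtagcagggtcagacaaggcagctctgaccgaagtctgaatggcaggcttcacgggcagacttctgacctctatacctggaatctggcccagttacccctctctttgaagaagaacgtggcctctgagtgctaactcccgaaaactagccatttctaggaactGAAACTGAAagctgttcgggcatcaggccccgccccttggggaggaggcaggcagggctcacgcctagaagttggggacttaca
Irgm2, chr11:58214727-58215026: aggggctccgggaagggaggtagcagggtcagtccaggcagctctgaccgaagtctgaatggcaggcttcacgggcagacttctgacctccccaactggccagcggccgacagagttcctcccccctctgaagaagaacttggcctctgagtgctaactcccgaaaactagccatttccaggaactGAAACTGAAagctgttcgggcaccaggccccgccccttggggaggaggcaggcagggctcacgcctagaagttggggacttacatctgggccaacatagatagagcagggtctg
Gbp7, chr3:142530086-142530385: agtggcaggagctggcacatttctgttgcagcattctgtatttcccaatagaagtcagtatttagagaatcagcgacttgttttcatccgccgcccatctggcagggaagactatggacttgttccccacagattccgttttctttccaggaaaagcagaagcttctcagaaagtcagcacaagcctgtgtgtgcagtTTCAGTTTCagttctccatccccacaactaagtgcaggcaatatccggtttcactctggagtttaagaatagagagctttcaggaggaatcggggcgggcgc
Gbp2, chr3:142620413-142620712: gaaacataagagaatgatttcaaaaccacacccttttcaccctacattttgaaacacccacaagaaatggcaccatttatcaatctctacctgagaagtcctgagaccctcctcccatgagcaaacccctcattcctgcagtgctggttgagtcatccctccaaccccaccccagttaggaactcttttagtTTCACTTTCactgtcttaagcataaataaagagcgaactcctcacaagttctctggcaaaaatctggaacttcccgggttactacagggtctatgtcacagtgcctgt
Igtp and Irgm2 lie close together on chromosome 11 and share a run of 29 identical bases that holds the element, and a longer one of 61 bases downstream of it, whereas Gbp7 and Gbp2 carry it in the reverse orientation. In the 4 promoters the match begins 34 to 64 bases before the start. Of the 22 measured interferon-induced genes 19 had a promoter entry, and 13 of these held the motif (68.4%). The share was 656 of 9382 among the tested genes (6.99%) and 2317 of 27025 promoters in all (8.57%). Of the antigen presentation genes 11 had a promoter entry, and only 1 held the motif (9.09%), near the share in all promoters. A match is a description of letters and shows no binding.

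Collagen genes remained high at 1 month, and part of their lower level was shared with sham. Of 21 measured genes for fibrillar collagens and their assembly, 11 were counted higher at 1 month (2.89% of all genes) and 12 at 1 week (6.01%), and 11 were persistent (2.01%). The list median was 1.05 at 1 month and 1.41 at 1 week, while the MI shams drifted by -0.35 from 1 week to 1 month. Col1a1, the main chain of scar collagen, had a signal of 1307 in MI and 315 in sham at 1 month, and 6144 in MI and 689.8 in sham at 1 week. The change in signal, 1 month against 1 week, was -2.23 in MI and -1.13 in sham on the log2 scale, so about equal parts of the MI decrease lay in sham and in the healing difference of -1.104. Col3a1, the collagen of young scar, gave 5726 in MI and 2022 in sham at 1 month, and 9717 in MI and 3655 in sham at 1 week. Its ratio of 1.502 at 1 month and 1.41 at 1 week did not shrink, as sham was lower by as much as MI. A dimmer probe set of Col3a1 had ratios of 2.29 at 1 month and 3.21 at 1 week. Lox, the enzyme that cross-links collagen, had signals of 191 in MI and 16.1 in sham at 1 month, and 1253 in MI and 46.1 in sham at 1 week. Its log2 ratio of 3.57 at 1 month and 4.76 at 1 week was among the highest of all persistent genes. Loxl3, a relative of Lox, gave 155 in MI and 61.4 in sham at 1 month, and 340.4 in MI and 53.2 in sham at 1 week, and there sham was not lower at 1 month.

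Matricellular proteins, which tune cell behaviour within the matrix, were the most widely raised matrix list. Of 25 measured, 14 were counted higher at 1 month (2.89% of all genes) and 19 at 1 week (6.01%), with medians of 1.31 at 1 month and 1.68 at 1 week. Postn, periostin of activated fibroblasts, gave 3639.6 in MI and 561 in sham at 1 month, and 5566 in MI and 916 in sham at 1 week. Both MI arrays were above the highest control of 916, and the log2 ratio was 2.699 at 1 month and 2.603 at 1 week. Tnc, tenascin C, is a protein of fresh wounds and had signals of 43.6 in MI and 17.2 in sham at 1 month, and 254 in MI and 25.9 in sham at 1 week, just above the controls at 1 month. Fn1, fibronectin, gave 1139.7 in MI and 240.1 in sham at 1 month, and 3874 in MI and 408 in sham at 1 week. Thbs1 had log2 ratios of 1.99 at 1 month and 2.99 at 1 week, and Thbs2 0.48 at 1 month and 1.81 at 1 week. Thbs4, a thrombospondin of tendon and loaded heart, gave 465 in MI and 177 in sham at 1 month, and 335 in MI and 180.3 in sham at 1 week and was counted only at 1 month.

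Some genes known from cartilage and tendon were higher in MI at 1 month than in MI at 1 week. The 8 measured chondrocyte-like scar genes had a median log2 ratio of MI over sham of 2.25 at 1 month and 2.14 at 1 week. Their median change in the MI signal itself, 1 month against 1 week, was -0.22, so the list as a whole was not higher in MI at 1 month. Comp, cartilage oligomeric matrix protein, binds collagen fibrils and had signals of 821 in MI and 48.4 in sham at 1 month, and 334 in MI and 46.6 in sham at 1 week. MI at 1 month was the highest of all 12 arrays, and the shams were level, for a healing difference of 1.24. Angptl7, a secreted protein of cornea and tendon, gave 568 in MI and 128 in sham at 1 month, and 229.8 in MI and 126 in sham at 1 week, with a healing difference of 1.29 and again the highest signal of the 12 arrays. With the TAC shams the healing difference was 0.79 for Angptl7, under the 2-fold size, and 1.36 for Comp. Fmod, fibromodulin, organises collagen fibrils and gave 337 in MI and 36.4 in sham at 1 month, and 309 in MI and 35.9 in sham at 1 week, so that neither group moved. Cilp, a cartilage protein also made by cardiac fibroblasts, had signals of 485 in MI and 95.2 in sham at 1 month, and 722 in MI and 96.8 in sham at 1 week. Prelp, a related leucine-rich proteoglycan, gave 772 in MI and 394 in sham at 1 month, and 555 in MI and 424 in sham at 1 week. The list's median healing difference depended on the shams used: it was 0.25 with the MI shams and -0.17 with the TAC shams.

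Elastic fibre genes split. Eln, elastin, gave 189.6 in MI and 58.04 in sham at 1 month, and 777 in MI and 91.7 in sham at 1 week, with a healing difference of -1.37. Mfap2, a microfibril protein, had signals of 87.7 in MI and 51.2 in sham at 1 month, and 267 in MI and 52.04 in sham at 1 week and was back inside the controls. Mfap5, by contrast, gave 1496 in MI and 369 in sham at 1 month, and 2212 in MI and 585 in sham at 1 week and had log2 ratios of 2.02 at 1 month and 1.92 at 1 week. Mfap4 gave 364 in MI and 4.54 in sham at 1 month, and 1014 in MI and 43.4 in sham at 1 week. Its sham at 1 month was at the floor, so the ratio there is a lower bound, and its positive healing difference (1.78) turned to -0.059 with a higher floor. Ltbp2, which binds microfibrils, had log2 ratios of 3.94 at 1 month and 3.47 at 1 week, and its healing difference of 0.48 was -1.47 with the TAC shams.

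**Figure D3:**
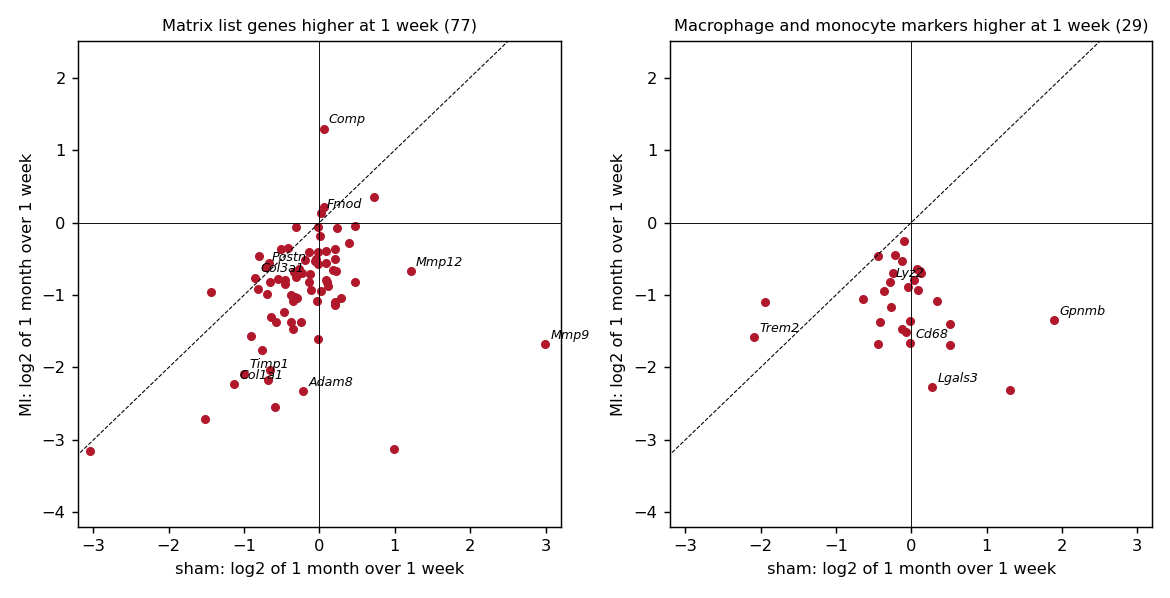
Change from 1 week to 1 month in MI (vertical axis, log2) against that in sham (horizontal axis, log2) for genes counted higher at 1 week, with matrix list genes on the left (77) and macrophage markers on the right (29); 1 array per group, and the dashed line marks equal change. All 29 macrophage markers and 73 of the 77 matrix genes were lower in MI at 1 month than in MI at 1 week; the median change in sham was -0.077 for the macrophage markers and -0.24 for the matrix genes, and Comp lies above 0.

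Matrix proteases and their inhibitors had the most negative healing difference of the matrix lists, at least with the MI shams. Of 21 measured matrix proteases and inhibitors 4 were counted higher at 1 month (2.89% of all genes) and 13 at 1 week (6.01%), and 9 were counted lower in the healing difference (2.98%). Medians were 0.47 at 1 month and 1.31 at 1 week. Timp1, an inhibitor of matrix metalloproteinases, had signals of 191 in MI and 31.8 in sham at 1 month, and 813 in MI and 63.7 in sham at 1 week. The disintegrin protease Adam8 gave 44.8 in MI and 32.1 in sham at 1 month, and 225 in MI and 37.3 in sham at 1 week. Its relative Adam12 gave 38.9 in MI and 22.8 in sham at 1 month, and 176 in MI and 36.5 in sham at 1 week. At 1 month both were close to the control range. Adam19 had signals of 149 in MI and 129 in sham at 1 month, and 319 in MI and 111 in sham at 1 week and was inside it. Adamts4, which cuts proteoglycans, gave 12.5 in MI and 13.1 in sham at 1 month, and 108 in MI and 6.57 in sham at 1 week and was no higher than sham at 1 month. Mmp14, a membrane-bound activator of other proteases, gave 179 in MI and 75.6 in sham at 1 month, and 495 in MI and 96.1 in sham at 1 week, but a dimmer probe set of the gene had the opposite sign. Mmp2, a gelatinase of fibroblasts, was steadier with 883 in MI and 457 in sham at 1 month, and 1172 in MI and 463 in sham at 1 week. Mmp3, stromelysin, had signals of 163 in MI and 45.9 in sham at 1 month, and 141 in MI and 43.8 in sham at 1 week and did not come down. The large healing differences of Mmp9 (-4.68) and Mmp12 (-1.88) depended on the shams. For Mmp9 it was -0.22 and for Mmp12 2.91 with the TAC shams. For the whole list the median was -0.88 with the MI shams and -0.22 with the TAC shams, so its size rests on which shams are used.

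Fibroblast genes and their signals stayed moderately high. The 21 measured fibroblast and myofibroblast markers had a median of 0.56 at 1 month and 0.72 at 1 week, and the 23 genes of TGF-beta and Wnt signalling 0.57 at 1 month and 0.69 at 1 week, with 7 of the 23 persistent (2.01% of all genes). The fibroblast receptor Pdgfra gave 606 in MI and 410.1 in sham at 1 month, and 621 in MI and 443 in sham at 1 week. The fibroblast transcription factor Tcf21 gave 394 in MI and 244 in sham at 1 month, and 447 in MI and 230.3 in sham at 1 week. Meox1, a transcription factor of activated fibroblasts, had signals of 312 in MI and 108 in sham at 1 month, and 444 in MI and 111 in sham at 1 week. Tagln, a smooth muscle protein of myofibroblasts, gave 398 in MI and 253 in sham at 1 month, and 755 in MI and 257 in sham at 1 week. Fap, a protease of activated fibroblasts, gave 129 in MI and 105 in sham at 1 month, and 226 in MI and 98.5 in sham at 1 week. Both had a smaller MI excess at 1 month. Other markers went the opposite way, and in the healing difference 11 of the 21 were below 0 and 10 above. Acta2, the smooth muscle actin of myofibroblasts and vessels, gave 4306 in MI and 3491 in sham at 1 month, and 3289.6 in MI and 4649 in sham at 1 week, below sham at 1 week and above it at 1 month. Pdgfrb, a receptor of fibroblasts and pericytes, gave 919 in MI and 548 in sham at 1 month, and 587 in MI and 545 in sham at 1 week, but its healing difference of 0.64 became -0.057 when all its probe sets were averaged. Ligands of the TGF-beta family remained above sham, Tgfb2 with log2 ratios of 1.17 at 1 month and 1.69 at 1 week and Tgfb3 with 1.300 at 1 month and 1.92 at 1 week. Ccn2, a TGF-beta target, had signals of 3345 in MI and 939 in sham at 1 month, and 5244 in MI and 1135 in sham at 1 week. Sfrp2, a secreted Wnt modulator, gave 435 in MI and 27.7 in sham at 1 month, and 601 in MI and 48.5 in sham at 1 week and was among the strongest persistent genes, and Frzb, another of its kind, gave 601 in MI and 195 in sham at 1 month, and 629 in MI and 197 in sham at 1 week.

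**Figure D4:**
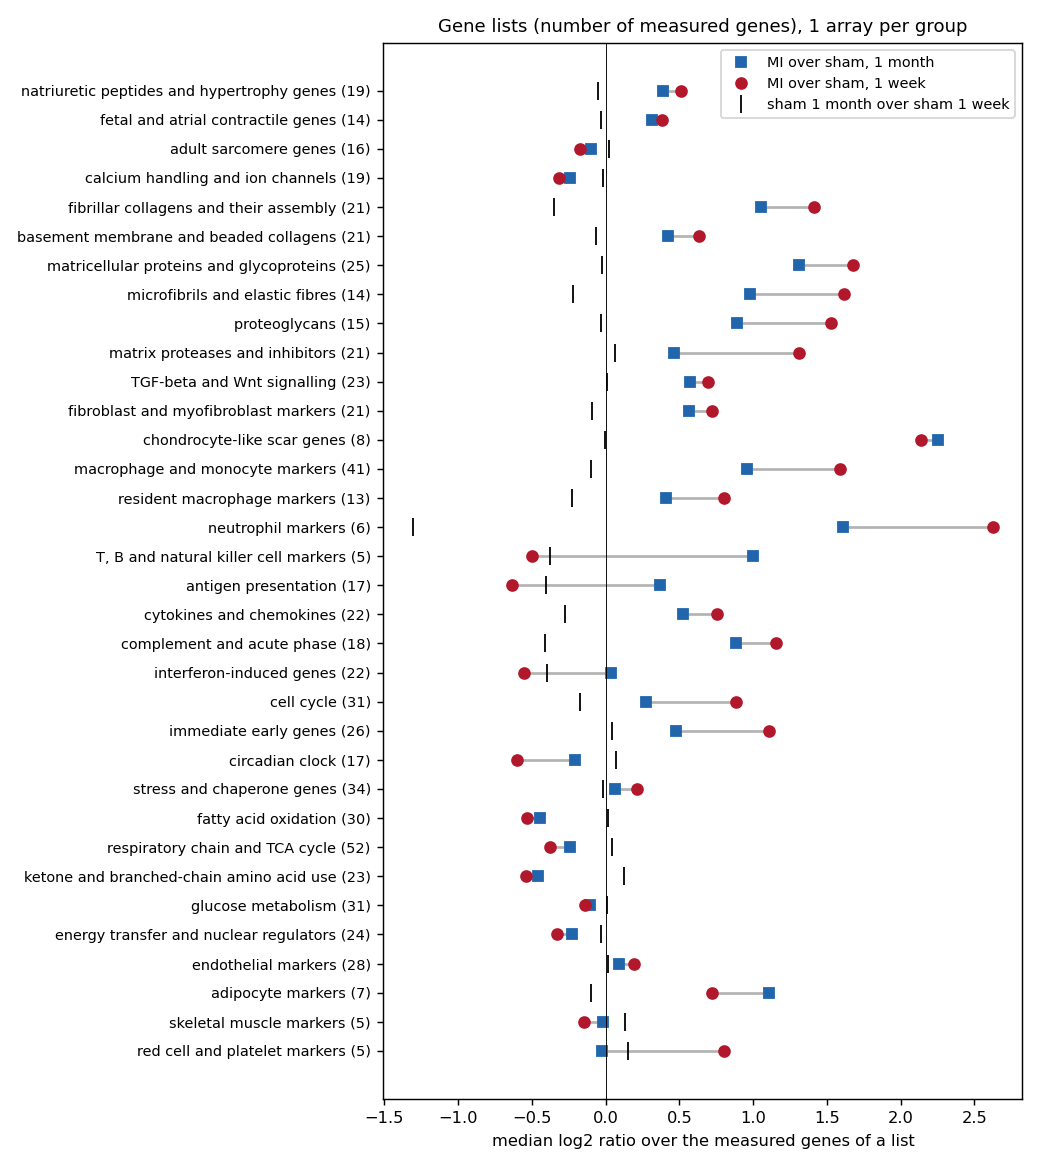
Median log2 ratio of MI over sham for each gene list at 1 month (blue squares) and at 1 week (red circles), with the median change of sham from 1 week to 1 month (black ticks), 1 array per group; numbers in brackets count the measured genes. Macrophage, matrix protease and cell cycle lists have lower medians at 1 month, metabolic lists stay left of 0 at both times, and the T, B and natural killer cell and antigen presentation medians lie on opposite sides of 0.

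Fetal heart genes differed among themselves. Nppa, atrial natriuretic peptide, had signals of 9373 in MI and 1857 in sham at 1 month, and 10204 in MI and 1357 in sham at 1 week. It stayed near its 1 week signal in MI, far above the highest control of 3075. Myh7, the slow myosin heavy chain of the fetal mouse heart, gave 2322 in MI and 837 in sham at 1 month, and 7572 in MI and 564 in sham at 1 week. Its MI signal changed by -1.71 on the log2 scale, 1 month against 1 week, and was still above the controls. Nppb, the B-type peptide, gave 7743 in MI and 6159 in sham at 1 month, and 7849 in MI and 6152 in sham at 1 week. Ankrd1, a stretch-responsive repressor, had signals of 11982 in MI and 11440.0 in sham at 1 month, and 11451 in MI and 11062 in sham at 1 week. Nppb and Ankrd1, like Nppa in MI, have signals near the top of the scale. Acta1, skeletal alpha-actin of the fetal program, had log2 ratios of -0.045 at 1 month and -0.17 at 1 week.

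Genes of the atrium were raised together with Nppa at 1 week and had lower MI signals at 1 month. Sln, sarcolipin, a brake on the calcium pump, gave 370.3 in MI and 162 in sham at 1 month, and 1854 in MI and 162 in sham at 1 week. The atrial light chain Myl7 gave 987 in MI and 369 in sham at 1 month, and 3747 in MI and 504 in sham at 1 week. Myl4, the other atrial and fetal light chain, had signals of 873 in MI and 412 in sham at 1 month, and 3103 in MI and 475 in sham at 1 week. Mybphl, an atrial myosin-binding protein, gave 46.8 in MI and 19.00 in sham at 1 month, and 212 in MI and 31.2 in sham at 1 week. Healing differences were -0.58 for Nppa, -2.32 for Sln, -1.48 for Myl7, -1.62 for Myl4 and -1.47 for Mybphl. With all its probe sets averaged, Sln had -0.85, under the 2-fold size. Sln, Myl7, Myl4 and Mybphl were highest in MI at 1 week, and the part that atrial tissue in the sample may play was not tested. The Ang II control, with 840.4 for Myl7 and 942 for Myl4, set the top of the control range. Of 14 measured fetal and atrial contractile genes 5 were counted lower in the healing difference (2.98% of all genes) and 0 higher (1.78%).

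**Figure D5:**
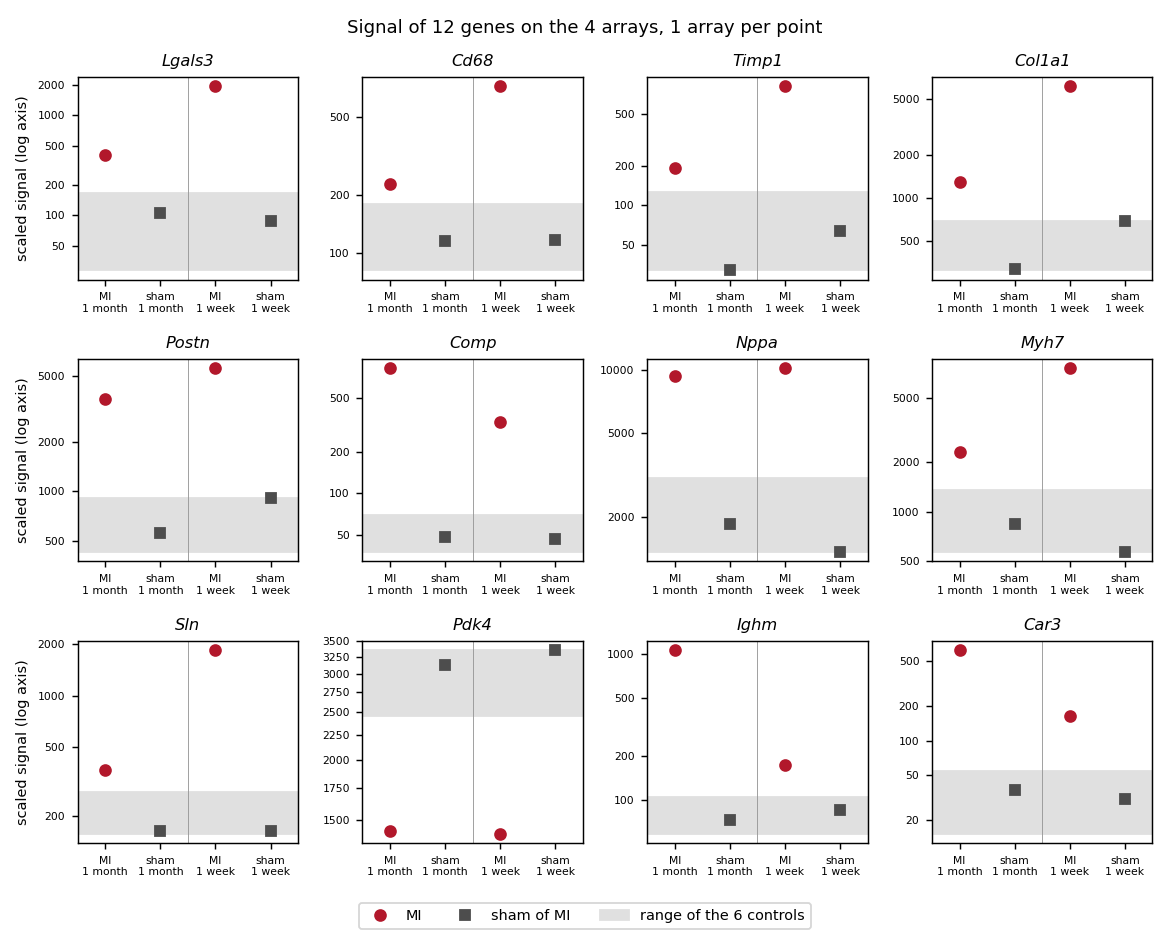
Scaled signal on a log axis for 12 genes on the 4 arrays, MI (red circles) and sham (dark squares) at 1 month on the left and at 1 week on the right of each panel, 1 array per point; the grey band is the range of the 6 controls. Lgals3, Cd68, Timp1, Col1a1, Myh7 and Sln are lower in MI at 1 month than in MI at 1 week, Postn and Nppa stay far above the band, Pdk4 stays below it, and Comp, Ighm and Car3 are higher at 1 month.

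Genes of stretch and stress response varied: some kept or widened their excess, and some lost it. Fhl1, a stretch-sensing protein of the sarcomere, gave 4738 in MI and 2094 in sham at 1 month, and 3042 in MI and 2085 in sham at 1 week and was counted only at 1 month. Nmrk2, a kinase that makes the cofactor NAD, had signals of 507 in MI and 110.5 in sham at 1 month, and 561 in MI and 146 in sham at 1 week. Dkk3, a secreted glycoprotein, gave 347 in MI and 79.01 in sham at 1 month, and 393 in MI and 78.3 in sham at 1 week, and neither MI nor sham moved. Mt2, a metal-binding stress protein, gave 492 in MI and 363 in sham at 1 month, and 1124 in MI and 353 in sham at 1 week and was back inside the controls. Clu, clusterin, had signals of 3779 in MI and 3558 in sham at 1 month, and 6658 in MI and 3538 in sham at 1 week. The 16 adult sarcomere genes had medians of -0.1 at 1 month and -0.17 at 1 week, with 14 of 16 below 0 at each time. Of 19 measured genes for calcium handling and ion channels 18 were below 0 at each time, with medians of -0.24 at 1 month and -0.32 at 1 week. Kcnip2, the subunit of the transient outward potassium channel, gave 768 in MI and 1272 in sham at 1 month, and 861 in MI and 1257 in sham at 1 week, below the lowest control of 1257 in both. Kcnd2, a pore subunit of the same current, gave 208 in MI and 319 in sham at 1 month, and 154 in MI and 339 in sham at 1 week.

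Fatty acid genes remained low. All 30 measured genes of fatty acid oxidation were below 0 at 1 month and 28 of 30 at 1 week, with medians of -0.45 at 1 month and -0.53 at 1 week, although only 2 and 3 were counted lower by the 2-fold rule (0.619% of all genes at 1 month and 1.3% at 1 week). Pdk4, the kinase that shuts pyruvate dehydrogenase when fat is burned, had signals of 1425 in MI and 3136 in sham at 1 month, and 1407 in MI and 3362 in sham at 1 week. Neither MI nor sham moved, and both MI arrays were below the lowest control of 2454. Cpt2, which admits fatty acids to mitochondria, gave 1022 in MI and 1830.2 in sham at 1 month, and 987 in MI and 1930.3 in sham at 1 week. Eci1, an isomerase for unsaturated fats, gave 1842 in MI and 3640.3 in sham at 1 month, and 1982 in MI and 3423 in sham at 1 week. Acaa2, the thiolase of the last step, had signals of 3068 in MI and 5205 in sham at 1 month, and 3158 in MI and 5169.8 in sham at 1 week. In these 3 the MI signals were nearly equal at both times and lay under every control. Acot2, a mitochondrial thioesterase, gave 485 in MI and 875 in sham at 1 month, and 381 in MI and 902 in sham at 1 week. Ucp3, an uncoupling protein, gave 63.03 in MI and 112 in sham at 1 month, and 34.3 in MI and 119 in sham at 1 week, with a smaller deficit at 1 month. The nuclear receptor Ppara, which drives this program, had signals of 259 in MI and 338 in sham at 1 month, and 238 in MI and 387 in sham at 1 week.

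The respiratory chain and TCA cycle list was lower by a small and even amount. All 52 measured genes were below 0 at both times, and 49 of 52 were closer to 0 at 1 month. Medians were -0.24 at 1 month and -0.38 at 1 week, while the median drift of the MI shams was 0.044. None of the 52 reached 2-fold, and no p can be given with 1 array per group. With signals as deposited the median of all genes was 0.067 at 1 month and 0.16 at 1 week, so the depth of such small deficits depends on the scaling. The median healing difference of all genes was then -0.094, against 0.0034, while that of this list was 0.11 in the main setting. How many of the 52 lie closer to 0 at 1 month therefore depends on the scaling too. Ketone and branched-chain amino acid genes had medians of -0.46 at 1 month and -0.54 at 1 week, with 22 of 23 below 0 at each time. Bdh1, the enzyme that uses ketone bodies, stood out within that list with 2571 in MI and 2504 in sham at 1 month, and 1169 in MI and 2227 in sham at 1 week. Its MI signal was back at sham at 1 month. Mmut, of the propionate route, gave 693 in MI and 1006 in sham at 1 month, and 556 in MI and 1013 in sham at 1 week. Dbt, of branched-chain breakdown, gave 451 in MI and 629 in sham at 1 month, and 343 in MI and 575 in sham at 1 week. Both stayed below sham at 1 month. Glucose genes moved little, with medians of -0.11 at 1 month and -0.14 at 1 week. Pfkp, a glycolytic isoform, had log2 ratios of 0.73 at 1 month and 0.596 at 1 week, and the insulin-regulated transporter Slc2a4 -0.47 at 1 month and -0.41 at 1 week.

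Genes of dividing cells and of acute response were nearer to sham at 1 month. Of 31 measured cell cycle genes 4 were counted higher at 1 month (2.89% of all genes) and 15 at 1 week (6.01%), with medians of 0.27 at 1 month and 0.89 at 1 week, and in the healing difference 10 were counted lower (2.98%) and 2 higher (1.78%). Mki67, the proliferation antigen, had signals of 73.00 in MI and 42.3 in sham at 1 month, and 217 in MI and 55.4 in sham at 1 week. Top2a, which untangles DNA, gave 55.05 in MI and 60.01 in sham at 1 month, and 152 in MI and 55.4 in sham at 1 week. Cdk1, the kinase that starts mitosis, gave 52.9 in MI and 39.7 in sham at 1 month, and 144 in MI and 41.1 in sham at 1 week. Cdc20 had signals of 41.3 in MI and 50.1 in sham at 1 month, and 117 in MI and 58.2 in sham at 1 week. Ube2c gave 37.00 in MI and 26.4 in sham at 1 month, and 108 in MI and 28.6 in sham at 1 week. These genes are dim, and the list median of -0.69 was -0.20 over members above the 60th percentile of signal. Cdkn1a, an inhibitor of the cycle, gave 176 in MI and 122 in sham at 1 month, and 548 in MI and 122 in sham at 1 week.

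Of 26 measured immediate early genes, transcription factors switched on within minutes, 7 were counted higher at 1 month (2.89% of all genes) and 15 at 1 week (6.01%). Atf3, a stress factor, had signals of 82.1 in MI and 83.3 in sham at 1 month, and 199 in MI and 70.3 in sham at 1 week and matched sham at 1 month. Socs3, a feedback inhibitor of cytokine signals, gave 114 in MI and 79.8 in sham at 1 month, and 286 in MI and 64.8 in sham at 1 week. Myc gave 21.5 in MI and 17.3 in sham at 1 month, and 84.1 in MI and 28.4 in sham at 1 week. Fos had signals of 291 in MI and 74.03 in sham at 1 month, and 1006 in MI and 54.2 in sham at 1 week. Egr1 gave 419.6 in MI and 195 in sham at 1 month, and 982 in MI and 157 in sham at 1 week, but their negative healing differences (-2.24 and -1.54) turned positive with the TAC shams (0.92 and 0.35). Hmox1, the heme-degrading enzyme, gave 54.5 in MI and 64.1 in sham at 1 month, and 176 in MI and 44.8 in sham at 1 week and was within the controls at 1 month.

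By size alone, the 15 highest and 15 lowest healing differences were mostly dim genes. Under a mean signal of 100 lay 14 of the highest and 15 of the lowest, and 6 and 7 of them were at the floor on some array. The 1 brighter gene was Igtp, among the highest. Dim genes of known role were Mmp9, Adamts4 and Clec4d, a receptor of myeloid cells, among the lowest and Jchain among the highest. The largest persistent increases, ranked by the smaller of the 2 ratios, were Mfap4, Hp, Cthrc1, Sfrp2, Lox, Ltbp2, Ecrg4, Fmod, Trem2 and Sh3pxd2b. The signal filter took the mean of all 12 arrays, the MI arrays included. Cthrc1, Trem2, Mmp9 and Clec4d passed it only with the MI arrays counted in, so the filter favoured their place in these rankings. Cthrc1, a secreted protein of activated fibroblasts, had signals of 89.3 in MI and 4.54 in sham at 1 month, and 797 in MI and 37.6 in sham at 1 week, with sham at the floor at 1 month. Among the persistent decreases Aqp6, a water channel, gave 173 in MI and 749.9 in sham at 1 month, and 217 in MI and 638 in sham at 1 week. Ces1d, a carboxylesterase, gave 264 in MI and 714 in sham at 1 month, and 303 in MI and 716 in sham at 1 week. Thrsp, a regulator of fat synthesis, had signals of 387 in MI and 873 in sham at 1 month, and 264 in MI and 688 in sham at 1 week. In each of these 3 both MI arrays were below every control.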

How the data were processed

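The members and gene lists were chosen with earlier results of these data known. Total RNA (5 µg) was measured on 1-colour Affymetrix arrays. The authors deposited 1 intensity per probe set and array on a linear scale, from GCOS (no version) per the submitters' processing notes. Neither the notes nor the labels state a signal algorithm or a scaling step.

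With Python 3.11.15, numpy 2.4.6 and pandas 2.3.3, signals were scaled to a common 2% trimmed mean (factors from 0.921 to 1.04 on the 4 arrays), raised to the 20th percentile of all values (4.54) where lower, and converted to log2. Of 45101 probe sets 34958 had exactly 1 gene symbol in the platform annotation. 34754 of these had an Entrez identifier in the RefSeq gene table, and 0 symbols differed. Each gene took its brightest probe set, and genes above the 40th percentile of mean log2 (a signal of 18.1) were used, which left 11624. The log2 ratios are computed here from the deposited intensity, and values at the floor make them bounds. Each group is 1 array, the number of arrays limits the precision, and no p-value was computed. The code was run on simulated arrays with little noise and large known changes in bright genes. That run does not show how the rules perform on dim genes or at the spread seen among shams.

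Named genes were the 15 highest and 15 lowest healing differences, the 10 largest persistent and 10 largest late genes in each direction, and of each list every counted member, with the 5 largest healing differences and 3 largest mean ratios among the rest. Outside this rule, and chosen after their values were seen, are Nppb, Ankrd1, Igkv8-30, Gbp2, H2-Ea, Ifitm3, Oas1a, Acta1, Cdkn1a, Pdgfra, Slc2a4, Ppara, Myl2, Myh6, Pecam1 and Kdr. Alternatives covered the scaling, floor, probe set, filter, shams and counting rule. The TAC and Ang II procedure arrays entered only the scaling, floor and signal filter, apart from single values named as such.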

Additional observations from a re-analysis of the deposited data

Results flagged for a closer look

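These results had opposite directions at the 2 times, and the difference was not tested, since each group is 1 array. Of 319 genes with a log2 ratio of at least 1 in size at both times, 22 had opposite signs, and 8 of those are named by the rule. Cxcl9, a chemokine induced by interferon-gamma, had log2 ratios of 1.25 at 1 month and -1.79 at 1 week, for a healing difference of 3.03. Gm4951 had 1.699 at 1 month and -1.52 at 1 week and 3.22. Foxh1 had 1.85 at 1 month and -2.77 at 1 week and a healing difference of 4.62, and Glyctk, a glycerate kinase, 1.41 at 1 month and -1.52 at 1 week and 2.93. In the other direction Spock2 had -2.601 at 1 month and 1.61 at 1 week (-4.21), Sebox -2.07 at 1 month and 1.77 at 1 week (-3.84), Rhbdf2 -1.804 at 1 month and 1.98 at 1 week (-3.79) and Slc5a2 -1.99 at 1 month and 1.51 at 1 week (-3.51). All 8 are dim, with signals between 4.54 and 80.8 on the 4 arrays. Among lists, antigen presentation had medians of 0.37 at 1 month and -0.63 at 1 week, for a healing difference of 0.91. The 5 measured T, B and natural killer cell markers had 0.998 at 1 month and -0.499 at 1 week, for a healing difference of 2.15. They include Ighm and Jchain, so this list is not separate from the immunoglobulin result. The median of 2.15 is the value of Ccl5, a dim gene with 28.0 in MI at 1 month, inside the control range.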

How the results depend on the processing

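No paired analysis was possible because each group holds 1 array. The counts were 207 higher and 346 lower healing differences, 178 returned, 234 persistent and 57 late genes. Above the 60th percentile of signal they were 32, 108, 40, 131 and 5, at a log2 size of 1.5 they were 83, 135, 69, 79 and 23, and at a mean signal of at least 100, chosen after seeing the data, 18, 58, 24, 99 and 0. Without the range condition 352 were higher and 101 late, without the dim filter 102 late, and with the TAC shams 97 late. Of the 234 persistent genes, 231 were persistent with signals as deposited, 194 after quantile normalization and 125 with the TAC shams. Signals as deposited gave 172 higher and 472 lower (26.7% higher, against 37.4%), at 1 week 91.4% higher against 82.2%, and shifted the median healing difference of all genes to -0.094.

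List medians that moved by over 0.22, the SD of list medians in the difference among shams, are as follows. With the TAC shams they were -0.22 for matrix proteases, -0.17 for chondrocyte-like genes, -0.43 for neutrophil, 2.47 for T, B and natural killer, 1.30 for antigen presentation, 0.70 for clock and 0.30 for adipocyte genes. Red cell and platelet markers had 0.20, against -0.75 with the MI shams. With the mean of both shams they were -0.43 (proteases), -0.20 (chondrocyte-like), -0.78 (neutrophil), 0.47 (skeletal muscle) and -0.43 (red cell and platelet). With the mean of all probe sets they were -0.64 (proteases), -0.088 (chondrocyte-like), -0.40 (cell cycle), 0.36 (adipocyte) and 0.41 (skeletal muscle). Above the 60th percentile of signal they were -0.25 (proteases), 0.48 (chondrocyte-like), 1.16 (antigen presentation), -0.20 (cell cycle) and 0.25 (adipocyte). The other 279 of 302 list values stayed within 0.22.

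Of the 113 genes followed here that were counted in the healing difference, 10 reversed, and of 158 others, 48 changed sign under at least 1 alternative, 32 of them with the TAC shams. With the TAC shams these were Col12a1 (0.22), Mmp12 (2.91, and 0.51 with the mean of both shams), Gpnmb (0.63), Cfb (-0.022), Racgap1 (-0.79), Fos (0.92), Egr1 (0.35) and Itga2b (0.203). Nes turned to 0.061 with the mean of all probe sets and Mfap4 to -0.059 under the higher floor (40th percentile). Causes were not tested. Signal over background limits the rest: under a signal of 50, 24.3% of genes differed 2-fold in the healing difference and 26.8% among shams.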

Other observations

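Several genes known from fat cells were highest in MI at 1 month, while others were not. Car3, a carbonic anhydrase abundant in fat, gave 630.0 in MI and 36.5 in sham at 1 month, and 164 in MI and 30.4 in sham at 1 week. Adipoq, adiponectin, gave 102 in MI and 7.37 in sham at 1 month, and 25.1 in MI and 11.1 in sham at 1 week. Adipoq is dim and passed the signal filter only with the MI arrays counted in. The filter therefore favoured its place here and in the adipocyte list below. Cyp2e1, a cytochrome of liver and fat, gave 237 in MI and 22.01 in sham at 1 month, and 64.1 in MI and 33.9 in sham at 1 week. In each of these 3 genes MI at 1 month was the highest of the 12 arrays. Of 16 listed adipocyte markers 7 were measured, with medians of 1.11 at 1 month and 0.72 at 1 week. Among the others, Cidea had log2 ratios of 0.15 at 1 month and -0.47 at 1 week and Plin4 -0.403 at 1 month and -0.499 at 1 week. With the TAC shams the healing difference of Car3 was 0.58, against 1.68. How much fat on the dissected ventricle contributes was not tested.

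Endothelial genes were mixed. Pecam1, an adhesion molecule of all endothelium, had log2 ratios of 0.21 at 1 month and 0.55 at 1 week, and Kdr, the main VEGF receptor, 0.0015 at 1 month and -0.19 at 1 week. Plvap, a protein of fenestrated capillaries, gave 162 in MI and 56.6 in sham at 1 month, and 245 in MI and 55.4 in sham at 1 week. Selp, P-selectin, which slows passing leukocytes, gave 46.3 in MI and 12.04 in sham at 1 month, and 95.9 in MI and 18.1 in sham at 1 week. Both were persistent, whereas the list of 28 had medians of 0.09 at 1 month and 0.19 at 1 week.

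Clock and heat shock genes differed widely among uninjured arrays. Arntl, a core clock activator, gave 27.03 in MI and 20.2 in sham at 1 month, and 153 in MI and 18.1 in sham at 1 week. The sham of TAC gave 112 at 1 month and 116 at 1 week, and the Ang II control 9.30. Dbp, a clock output gene, gave 977 in MI and 1387 in sham at 1 month, and 279.6 in MI and 1247 in sham at 1 week, and ran from 467 to 2051 over the 6 controls. The time of day of each harvest is not given in the sources used here. Hspa1b, an inducible heat shock protein, gave 347 in MI and 2551 in sham at 1 month, and 855 in MI and 1979.8 in sham at 1 week, and the shams of TAC 169 at 1 month and 309 at 1 week.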
